A study of Mus musculus with 28 samples.

Results

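The genes described here are the matrix metalloproteases (Mmp), the membrane-bound ADAM proteins (Adam), the secreted ADAMTS proteases (Adamts) and the tissue inhibitors of metalloproteases (Timp) of the mouse. Members were the protein-coding genes whose symbol is one of these family names followed by a number, with a closing letter allowed for Mmp and Adam. Mmp9, Mmp13 and Mmp20 were set aside, which left 75 members of 52636 genes in the count table. They comprise 19 Mmp, 33 Adam, 19 Adamts and 4 Timp genes. Their RNA was measured by sequencing of single first molar tooth germs of wild type C57BL/6JOlaHsd mice, with no treatment at any stage. There were 7 teeth at E13 (bud stage, 7 embryos), 7 at E14 (cap stage, 6 embryos) and 7 at E16 (bell stage, 5 embryos), where E is the embryonic day and the labels add a further 0.5 day to each. A second count table added 6 lower first molars labelled E15, of the same strain and genotype, which were used for levels only. Whole tooth germs hold epithelium and mesenchyme together, so that fewer cells of a type and less RNA per cell cannot be told apart. Left and right teeth of 1 embryo count as separate samples, and p-values therefore cover the spread between teeth, some of which share an embryo.

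Metalloproteases of these families hold a zinc ion in their catalytic site and are made as inactive precursors, which convertases such as furin or other proteases activate. Mmp enzymes degrade collagens and other matrix proteins, Adam proteases cut growth factors, cytokines and receptors off the cell surface, and Adamts enzymes process procollagens and cleave proteoglycans such as versican. Timp proteins bind and block the active enzymes, and Timp2 also takes part, together with Mmp14, in the activation of pro-Mmp2. In the tooth germ, the epithelium grows into the underlying mesenchyme across a basement membrane, a setting in which matrix turnover has long been studied.

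The libraries held 17814073 to 27115729 counts per tooth, and 47 of the 75 members passed the filter on low counts. Levels are CPM, the read count of a gene scaled to the size of its library, with library sizes adjusted by the trimmed mean of M values (TMM). Markers of the epithelium (Epcam, Cdh1, Krt14, Krt5 and Trp63) had a summed level of 505 to 771 CPM at E13, 879 to 1159 CPM at E14 and 1309.7 to 2317 CPM at E16. For the mesenchyme (Twist1, Prrx1, Pdgfra, Pdgfrb and Vim) the sums ranged over 2517 to 2805 CPM, 2419 to 2751 CPM and 957 to 1798 CPM. Both tissues were thus present in every tooth. The mesenchymal sums of E13 and E14 overlapped, and Prrx1 had the largest fall in CPM, with stage medians of 1469, 1200 and 492 CPM. Vim had medians of 461, 604 and 570 CPM. By the test given further on, 2 of the 5 mesenchymal markers were lower at E16 than at E14 and 3 were not called. These marker shifts stand beside every result given here, and their part in those results was not tested. The E16 left tooth of embryo 3 stood apart, with the lowest epithelial and mesenchymal sums of the E16 teeth, and its values are given separately further on. The E13 left tooth of embryo 7 had a summed level of 215 CPM for 5 skeletal muscle markers, against a median of 4.15 CPM in the E13 teeth. The E14 left tooth of embryo 8 had a summed level of 889 CPM for 6 osteoblast markers, against 158 to 387 CPM in the other E14 teeth.

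The members fell into those that the tooth germs transcribed and those with few or no reads, and promoter sequences are shown for 2 of each kind. Of the 46 members with a promoter in RefSeq's GRCm38.p6 annotation, the 250 bases before the annotated start were searched on both strands for 3 motifs, none of which overlaps another by its letters. The first was the TATA box, spelled TATAAA, which positions the transcription start in many tissue-restricted genes. The second was the binding site of AP-1, a dimer of Fos and Jun proteins, spelled TGANTCA. The third was the GC box bound by Sp1 and its relatives, spelled GGGCGG. Mmp14 (chr14:54431348-54431597, plus strand) and Adam10 (chr9:70678732-70678981, plus strand) were among the most abundant members. Mmp3 (chr9:7445572-7445821, plus strand) and Mmp10 (chr9:7502092-7502341, plus strand) lie in a run of Mmp genes on chromosome 9 and had 43 and 0 reads over all 21 teeth. Capitals mark the motif matches.
Mmp14: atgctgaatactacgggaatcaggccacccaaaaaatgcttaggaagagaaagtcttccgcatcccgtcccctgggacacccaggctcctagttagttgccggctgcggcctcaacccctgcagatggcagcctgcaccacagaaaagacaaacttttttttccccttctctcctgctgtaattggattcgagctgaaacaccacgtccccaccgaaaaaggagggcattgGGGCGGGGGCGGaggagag
Adam10: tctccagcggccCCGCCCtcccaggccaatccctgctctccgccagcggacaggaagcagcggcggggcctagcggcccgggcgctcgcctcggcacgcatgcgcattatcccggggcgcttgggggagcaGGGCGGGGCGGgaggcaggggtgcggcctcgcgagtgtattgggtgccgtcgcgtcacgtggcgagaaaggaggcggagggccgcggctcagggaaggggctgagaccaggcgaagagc
Mmp3: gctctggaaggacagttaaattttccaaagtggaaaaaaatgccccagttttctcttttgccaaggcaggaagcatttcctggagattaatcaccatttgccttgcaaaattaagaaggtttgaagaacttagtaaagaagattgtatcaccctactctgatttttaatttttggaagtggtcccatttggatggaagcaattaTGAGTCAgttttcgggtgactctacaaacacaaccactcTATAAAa
Mmp10: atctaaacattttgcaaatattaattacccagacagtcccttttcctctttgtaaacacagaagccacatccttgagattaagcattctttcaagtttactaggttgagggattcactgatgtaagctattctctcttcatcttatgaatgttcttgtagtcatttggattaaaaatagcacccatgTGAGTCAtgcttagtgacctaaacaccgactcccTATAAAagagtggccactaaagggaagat

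Both abundant genes carried the GC box on one or both strands and neither of the other motifs, whereas Mmp3 and Mmp10 each carried 1 TATA box and 1 AP-1 site and no GC box. Among the 27 matched members that passed the filter, 70.4% held a GC box, 3.70% a TATA box and 3.70% an AP-1 site in this window, with a median of 15 CG dinucleotides. Among the 19 that did not pass, the shares were 5.26%, 42.1% and 36.8%, with a median of 1 CG dinucleotide. Of all 16522 protein-coding promoters of the same length, 44.4% held a GC box, 11.9% a TATA box and 6.13% an AP-1 site. For Adam1a, Adam34, Adamts20 and Mmp11 the RefSeq start lies inside the longer gene model of GENCODE, well after its outermost start. These matches are a description of the letters in the window, and paralogues within a run share ancestry.

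Members lie on 19 chromosomes, and 33 of them sit in 11 runs in which neighbours are less than 1 Mb apart. The runs were drawn from members alone, so Mmp9, Mmp13 and Mmp20 were not placed in them, and the counts of a run leave these genes out. The run of 7 Mmp genes at chr9:7344381-7699585 (GRCm38) comprises Mmp12, Mmp1b, Mmp3, Mmp10, Mmp8, Mmp27 and Mmp7, which include a collagenase, stromelysins, the matrilysin and the macrophage metalloelastase. None of the 7 passed the filter, and Mmp8, the neutrophil collagenase, had the most reads, 147 over 21 teeth. A run of 5 Adam genes at chr8:24602246-25016927 held Adam18, Adam3, Adam5, Adam32 and Adam9. Adam9, a widely expressed protease, had 21525 reads there, while its nearest neighbour Adam32 had 383. Further along chromosome 8, none of the 7 testis-type genes in the runs Adam24 to Adam39 and Adam26b to Adam34 passed the filter, and no one of them had more than 5 reads. In all, 13 members had no read in any tooth and another 15 had some reads but did not pass. For a gene without a read, 3 counts of the total are the limit that a count of 0 allows in a library, and these limits cover counting error only.

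By family, 18 of 19 Adamts genes, 3 of 4 Timp genes, 16 of 33 Adam genes and 10 of 19 Mmp genes passed the filter. Per kilobase of exon, the highest mean levels over the 21 teeth were those of Mmp2 (65.4 CPM per kilobase), the gelatinase that degrades type IV collagen, and Timp2 (65.3). Mmp14, the membrane-type collagenase MT1-MMP, followed at 47.8 CPM per kilobase, ahead of Adam10 (31.2), the sheddase of Notch receptors and cadherins, and Timp3 (16.7), the inhibitor that binds to the matrix. Mmp2 and Timp2 differed by far less than the spread between teeth, and ranked by the median instead of the mean they changed places. The 5 genes at the head were the same by both measures, although the mean of Mmp11 was close behind that of Timp3 (16.70 against 16.72 CPM per kilobase). Mmp2, Mmp14 and Timp2 made up a median of 26.8% of the members' summed CPM at E13, 31.8% at E14 and 32.5% at E16, with 13.6% in the E16 left tooth of embryo 3. Among the other Adam and Adamts genes, Adamts10 (15.7), Adamts1 (12.4), Adamts9 (12.3), Adamts17 (11.2), Adam9 (10.51) and Adam17 (10.4 CPM per kilobase) were of similar level. Exons of some members overlap those of genes on the other strand, by 587 bases for Adam19, 311 for Adam17, 171 for Adamts4, 155 for Mmp11 and 122 for Adamts7, and since strand use in counting is not known, reads there may belong to either gene.

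**Figure D1:**
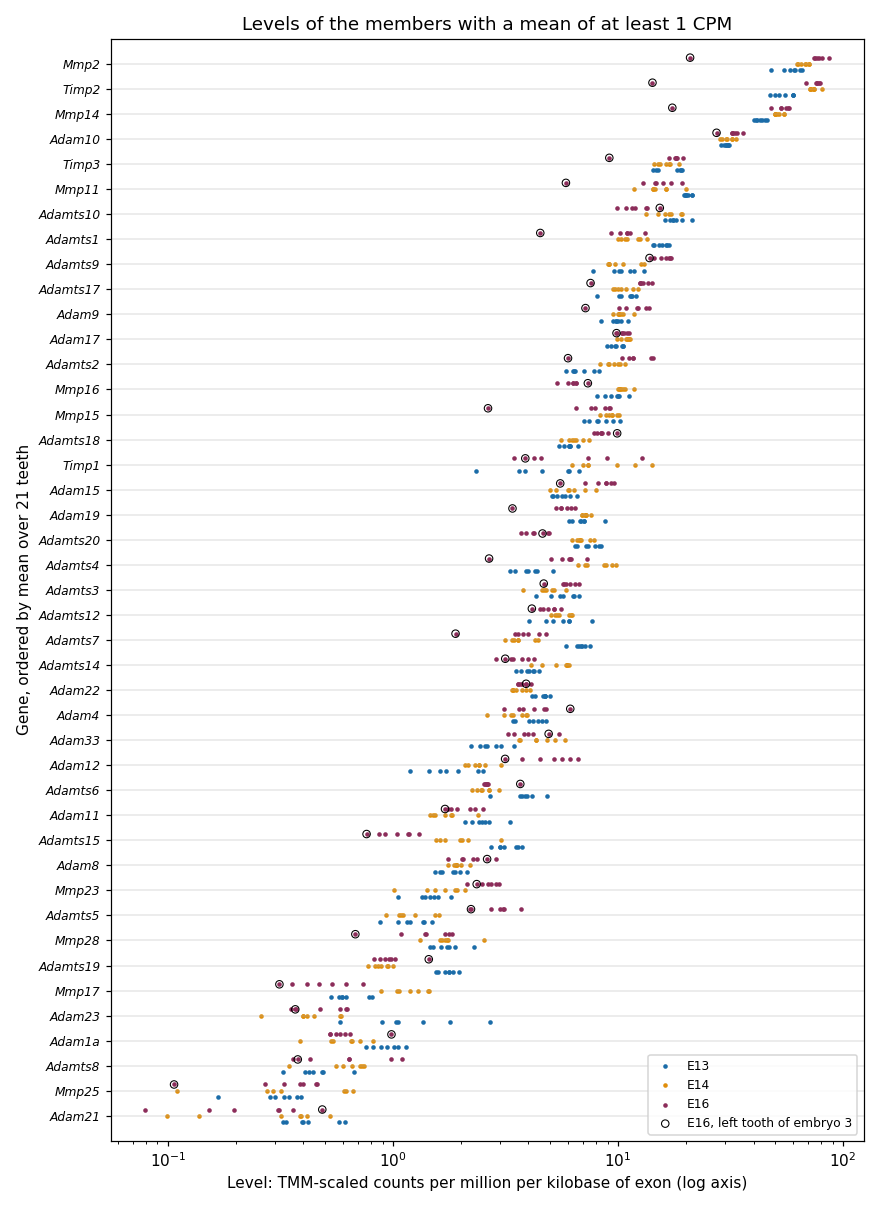
Level of each of the 43 members with a mean of at least 1 CPM, as TMM-scaled CPM per kilobase of exon on a log axis, 1 point per tooth coloured by stage, with genes ordered by their mean over 21 teeth. Mmp2, Timp2, Mmp14 and Adam10 head the order, and the ringed E16 left tooth of embryo 3 lies far below the other E16 teeth for Mmp2, Timp2 and Mmp14.

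Between E13 and E14, 6 of the 75 members rose and 9 fell, in a fit in which 19.7% of the 19101 genes tested changed (11.3% higher and 8.47% lower) at an adjusted p below 0.05 (edgeR's quasi-likelihood test with Benjamini-Hochberg adjustment, which gives all adjusted p-values here). Between E14 and E16, 9 members rose and 8 fell, where 28.1% of all genes tested changed (15% higher and 13.1% lower). From E13 to E16, 12 rose and 14 fell, where 41.3% of all genes tested changed (21.6% higher and 19.6% lower). The members called made up 20%, 22.7% and 34.7% of all 75 members and 31.9%, 36.2% and 55.3% of the 47 tested, and the background shares are over tested genes. The median absolute log2 fold change of the 47 tested members was 0.27, 0.27 and 0.48, against 0.21, 0.24 and 0.31 over all genes tested. The 3 comparisons share teeth pairwise, and their values are set side by side without a test of their likeness. Without the E16 left tooth of embryo 3, which also widens the spread used for E13 and E14, 10 members rose and 11 fell from E13 to E14 (30.4% of all genes tested). In the same fit, 14 rose and 8 fell from E14 to E16 (34.3%), and 18 rose and 13 fell from E13 to E16 (48.7%).

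**Figure D2:**
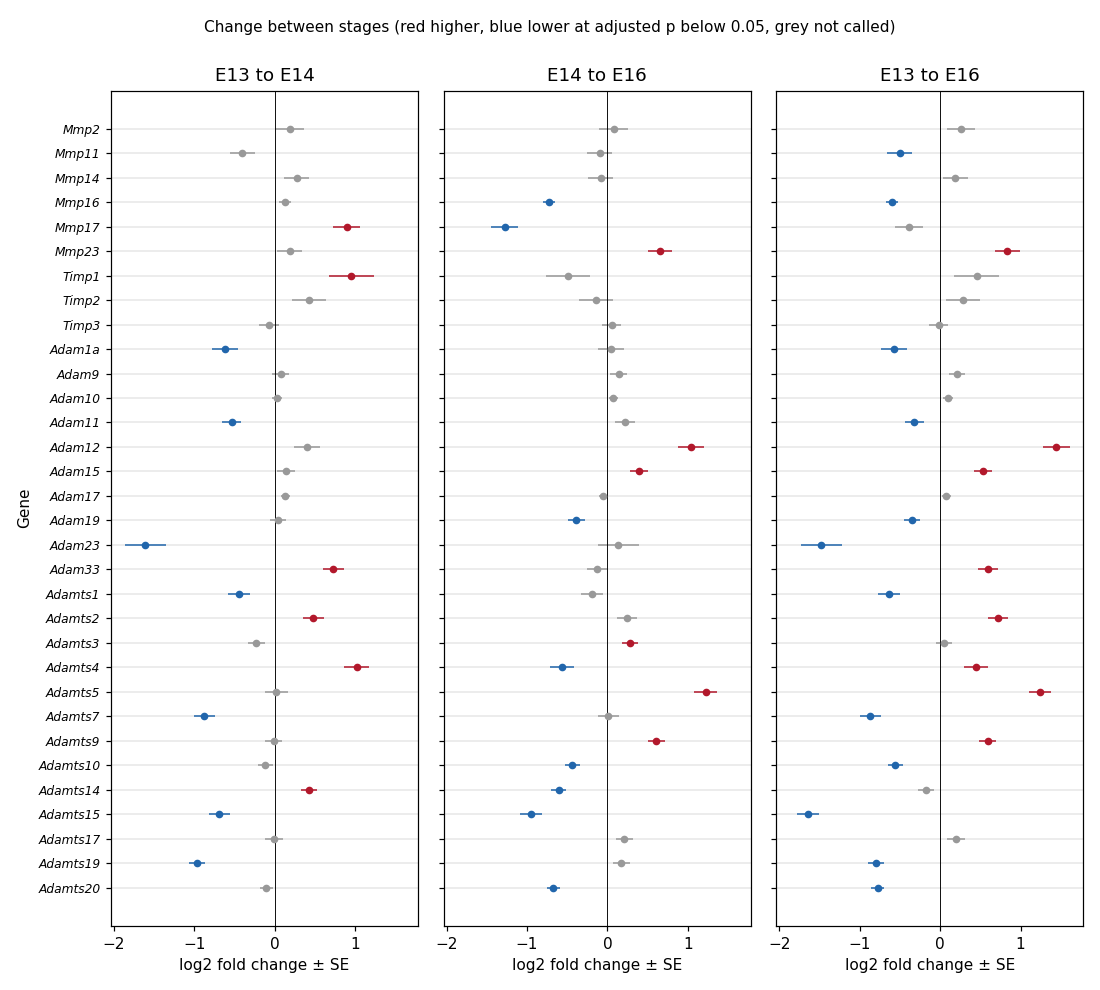
Log2 fold change with its standard error (SE) in each of the 3 comparisons for the 32 genes named by rule that were tested, ordered by family. Points right of 0 are higher at the later stage; Adam23 from E13 to E14 and Adamts15 from E13 to E16 lie farthest to the left, and Adam12 from E13 to E16 farthest to the right.

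Among the Mmp genes, the membrane-type members moved in different ways. Mmp17 encodes MT4-MMP, a protease anchored by glycosylphosphatidylinositol that is known to activate Adamts4. Its level was 3.52 to 5.36 CPM at E13 (median 3.95), 5.86 to 9.56 at E14 (median 7.91) and 2.07 to 4.86 at E16 (median 3.12). Every E14 tooth was above every tooth of the other 2 stages, while the E13 and E16 teeth overlapped. Mmp17 rose by 0.89 ± 0.17 (log2, SE, n = 7 teeth per stage) to E14 (adjusted p = 0.00047, edgeR) and fell by 1.28 ± 0.17 to E16 (adjusted p = 3.1e-06). From E13 to E16 its log2 difference was -0.39 ± 0.17 (adjusted p = 0.078), which passed the threshold without the E16 left tooth of embryo 6 (Mmp17 E13 to E16, -0.50, adjusted p = 0.022). Mmp16 encodes MT3-MMP, a transmembrane protease that can activate pro-Mmp2. It stood at 69.6 to 97.2 CPM at E13 and 87.0 to 102 at E14, and then at 46.4 to 63.7 at E16, below every earlier tooth. It fell by 0.73 ± 0.07 from E14 to E16 (adjusted p = 4.8e-08).

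Mmp14 and Mmp2, the most abundant proteases of the family, did not pass the test in any comparison with all 21 teeth. Mmp14 had 239.6 to 273 CPM at E13 (median 255), 298 to 327 at E14 (median 303) and 104 to 343 at E16 (median 317). All E14 teeth exceeded all E13 teeth, yet the log2 difference of 0.27 ± 0.15 had an adjusted p of 0.23, since 1 spread is estimated per gene over all stages. Without the E16 left tooth of embryo 3, Mmp14 was higher at E14 than at E13 by 0.27 ± 0.05 (adjusted p = 7.5e-05) and higher at E16 than at E13 by 0.35 ± 0.05 (adjusted p = 1.3e-06). Mmp2 had 162 to 221 CPM at E13 (median 204), 210.2 to 239 at E14 (median 229) and 70.5 to 293 at E16 (median 259). Its log2 difference from E13 to E16 was 0.26 ± 0.18 (adjusted p = 0.26) with all teeth and 0.43 ± 0.06 (adjusted p = 1.7e-06) without that tooth. Both genes therefore gave a call or none according to 1 library.

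Of the other Mmp genes, Mmp23, a membrane-bound member without the usual hemopexin domain, rose from a median of 3.99 CPM at E14 to 6.18 at E16, by 0.65 ± 0.15 (adjusted p = 0.0017), with no overlap between these stages. Mmp11, or stromelysin-3, is an enzyme of stromal cells that furin activates inside the cell. It had 54.8 to 59.4 CPM at E13, 32.6 to 55.9 at E14 and 16.3 to 53.3 at E16. Its fall of 0.50 ± 0.16 from E13 to E16 passed (adjusted p = 0.012), and that of E13 to E14 did so without the E16 left tooth of embryo 3 (-0.41 ± 0.09, adjusted p = 0.0013) or the E14 right tooth of embryo 3 (Mmp11 E13 to E14, -0.48, adjusted p = 0.038). Mmp19 rose from E14 to E16 by 1.35 ± 0.46 (adjusted p = 0.03) at a mean of under 1 CPM. The call was lost without any of 5 single teeth, the E16 right tooth of embryo 6 (1.07, adjusted p = 0.092) and the E14 teeth of embryo 1 right, embryo 6 right and left and embryo 8 left (1.21 to 1.29, adjusted p = 0.055 to 0.057). It was also lost with the teeth of 1 embryo summed, with embryo number as a block, and with all genes of any count tested. Mmp15, Mmp25 and Mmp28, the other tested members, passed in no comparison.

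Of the inhibitors, Timp2 had 185 to 234 CPM at E13 (median 214), 278 to 315 at E14 (median 287) and 55.4 to 309 at E16 (median 298). Every E14 tooth again exceeded every E13 tooth, and 6 of the 7 E16 teeth did as well. The log2 difference from E13 to E14 was 0.43 ± 0.21 (adjusted p = 0.16) with all teeth and 0.43 ± 0.05 (adjusted p = 1.3e-06) without the E16 left tooth of embryo 3. The soluble inhibitor Timp1 rose by 0.95 ± 0.28 from E13 to E14 (adjusted p = 0.018), from 2.07 to 5.95 CPM (median 4.08) to 5.57 to 12.6 CPM (median 6.53). The ranges overlapped, and without the E14 left tooth of embryo 8 the call was lost (Timp1 E13 to E14, 0.81, adjusted p = 0.053). That tooth had the highest Timp1 level of its stage as well as the high osteoblast markers, whose part in the rise was not tested. At E16 it spread over 3.07 to 11.4 CPM, and its difference from E14 passed only without the E16 left tooth of embryo 6 (Timp1 E14 to E16, -0.74, adjusted p = 0.036). Timp3, with 74.5 to 159 CPM over all teeth, changed in no comparison, and its exons overlap those of Syn3 on the other strand by up to 1733 bases, where reads of the 2 genes cannot be told apart without strand. Timp4 had 70 reads over 21 teeth and was not tested.

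**Figure D3:**
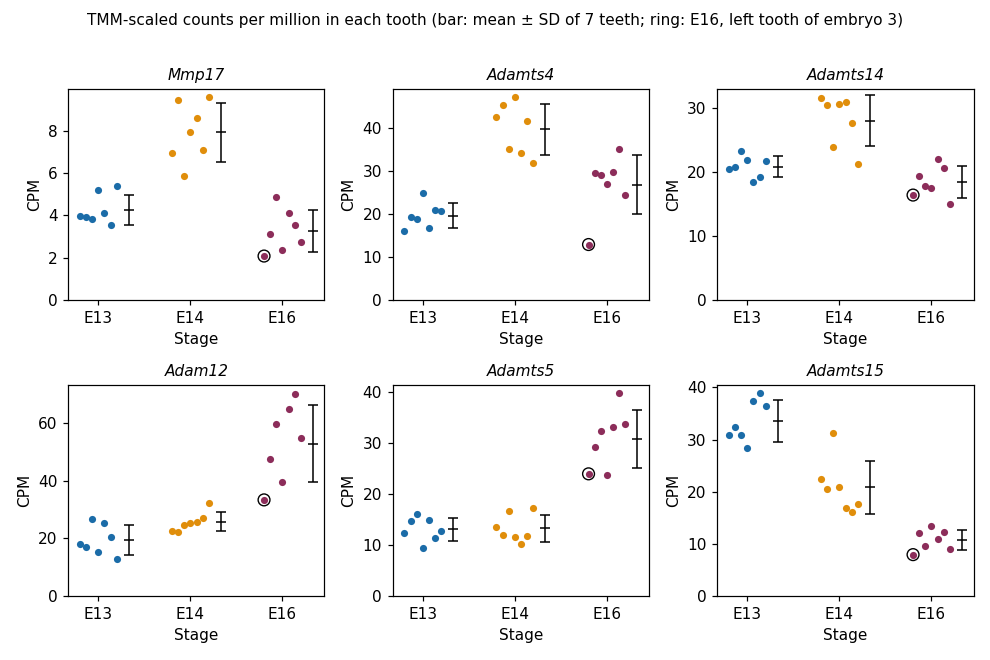
TMM-scaled CPM of 6 members in each tooth at E13, E14 and E16, with the mean and SD of 7 teeth beside the points and a ring around the E16 left tooth of embryo 3. Mmp17, Adamts4 and Adamts14 are highest at E14, Adam12 and Adamts5 at E16, and Adamts15 falls at each step.

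Among the Adam proteases, Adam12 and Adam15 rose and Adam19 fell from E14 to E16. Adam12, or meltrin alpha, cuts heparin-binding EGF-like growth factor and the IGF-binding proteins. It had 12.6 to 26.6 CPM at E13 (median 18.1), 22.2 to 32.1 at E14 (median 25.5) and 33.3 to 70.2 at E16 (median 54.9). All E16 teeth were above all earlier teeth, and the rise from E14 was 1.04 ± 0.16 (2.06-fold, adjusted p = 2e-05). From E13 to E14 the log2 difference was 0.41 ± 0.16 (adjusted p = 0.078), which passed without the E16 left tooth of embryo 3 (0.40 ± 0.14, adjusted p = 0.033) and without either of 2 E13 teeth, the left ones of embryo 3 (0.50, adjusted p = 0.035) and embryo 7 (0.48, adjusted p = 0.045) (Adam12 E13 to E14). Adam15 rose from a median of 37.2 to 54.2 CPM, by 0.39 ± 0.11 (adjusted p = 0.011), and its exons overlap an antisense gene by 1263 bases. Adam19, or meltrin beta, a protease of neuregulins, fell from 49.0 to 54.0 CPM at E14 to 24.2 to 45.8 at E16, by 0.39 ± 0.10 (adjusted p = 0.0056). Adam33 was higher at E14 (19.5 to 31.2 CPM) than at E13 (12.0 to 18.7 CPM) in every tooth, with a rise of 0.73 ± 0.13 (adjusted p = 0.00019).

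The broadly acting sheddases hardly moved. Adam10 had 141 to 153 CPM at E13, 139 to 164 at E14 and 135 to 177 at E16, with log2 differences of 0.03 ± 0.06, 0.07 ± 0.06 and 0.10 ± 0.06 in the order E13 to E14, E14 to E16 and E13 to E16. Adam17, the enzyme that releases TNF-alpha and EGF receptor ligands, had 63.9 to 81.1 CPM over all teeth, with differences of 0.13 ± 0.06, -0.05 ± 0.06 and 0.08 ± 0.06. Neither passed the test with all teeth. Without the E16 left tooth of embryo 3, Adam10 was higher at E16 than at E13 by 0.15 ± 0.05 (adjusted p = 0.0077), and Adam9 likewise by 0.31 ± 0.07 (adjusted p = 0.001).

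Adam11, Adam22 and Adam23, which lack protease activity and are known as receptors of LGI proteins in the nervous system, all fell from E13 to E14. Adam23 had 10.4 to 48.6 CPM at E13 (median 18.9), 4.64 to 10.53 at E14 (median 7.44) and 6.32 to 11.2 at E16 (median 8.51). Its fall of 1.61 ± 0.25 (3.05-fold, adjusted p = 5.6e-05) was the largest of any called member between these stages, and the E13 and E14 ranges touched in 1 E13 tooth. The highest value, 48.6 CPM, was that of the E13 left tooth of embryo 7, the one with the high muscle markers, and without it the fall was still called (Adam23 E13 to E14, -1.34, adjusted p = 0.0001). Adam22 fell by 0.34 ± 0.06 (adjusted p = 0.0003) and Adam11 by 0.54 ± 0.12 (adjusted p = 0.0028). The summed level of 5 nerve and glia markers was 17.5 to 28.2 CPM at E13, 23.2 to 29.7 at E14 and 20.6 to 32.7 at E16, so it did not fall together with these genes. Of the 21 testis and sperm Adam genes, 5 were tested. Adam1a fell by 0.62 ± 0.16 from E13 to E14 (adjusted p = 0.0081), and 4779 bases of its exons overlap other genes, one of them Mapkapk5 on the same strand, so its counts are uncertain.

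The procollagen N-proteinases are Adamts2, Adamts3 and Adamts14, which remove the amino-terminal propeptide of fibrillar procollagens. Adamts2 had 54.7 to 76.5 CPM at E13, 77.5 to 101 at E14 and 56.0 to 134 at E16. It rose by 0.48 ± 0.13 from E13 to E14 (adjusted p = 0.0094), with every E14 tooth above every E13 tooth. From E14 to E16 the log2 difference was 0.24 ± 0.13 (adjusted p = 0.17) with all teeth and 0.37 ± 0.08 (adjusted p = 0.0011) without the E16 left tooth of embryo 3. Adamts14 rose to E14 by 0.43 ± 0.10 (adjusted p = 0.0029) and fell to E16 by 0.61 ± 0.10 (adjusted p = 4e-05), with medians of 20.8, 30.5 and 17.8 CPM. Adamts3 rose by 0.28 ± 0.10 from E14 to E16 (adjusted p = 0.044), a call that ended when any of 6 single teeth was left out (E16 embryos 5 left, 6 left and 7 right, E14 embryos 2, 3 and 5 right), with adjusted p-values up to 0.078 (Adamts3 E14 to E16). That call was also lost with the teeth of 1 embryo summed, and with side or embryo number as a factor. The same held with only the 2 stages compared and with all genes of any count tested, and the adjusted p reached 0.12 among these settings. The Adamts3 difference from E13 to E14, -0.23 ± 0.10, passed only without the E13 right tooth of embryo 5 (Adamts3 E13 to E14, -0.29, adjusted p = 0.049). Within this trio the largest log2 difference was that of Adamts2 from E13 to E14 and that of Adamts14 from E14 to E16. The first lead, over Adamts14, was smaller than the SE, and no test between genes was made.

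The proteoglycanases cleave versican and aggrecan, and from E13 to E16 they held the largest fall (Adamts15) and the largest rise (Adamts5) called among the Adamts genes. Adamts15 had 28.3 to 38.9 CPM at E13 (median 32.4), 16.1 to 31.3 at E14 (median 20.6) and 7.92 to 13.48 at E16 (median 10.8). It fell by 0.69 ± 0.13 to E14 (adjusted p = 0.00058) and by a further 0.96 ± 0.14 to E16 (adjusted p = 7.7e-06). The E14 right tooth of embryo 3, at 31.3 CPM, was the single E14 tooth that reached into the E13 range, and all E16 teeth lay below all others. Adamts5, the main aggrecanase of cartilage, had 9.42 to 16.02 CPM at E13, 10.1 to 17.3 at E14 and 23.7 to 39.9 at E16. It did not pass from E13 to E14 (0.02 ± 0.14) and rose by 1.22 ± 0.14 (2.33-fold) to E16 (adjusted p = 2.3e-07), with no overlap.

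Adamts4, the other aggrecanase and a target of Mmp17, had 16.01 to 24.8 CPM at E13 (median 19.2), 31.8 to 47.1 at E14 (median 41.6) and 12.9 to 35.0 at E16 (median 29.0). It rose by 1.02 ± 0.15 (2.02-fold, adjusted p = 2.6e-05) and then fell by 0.56 ± 0.15 (adjusted p = 0.0055). Adamts9, a versican-cleaving member, rose from 136 to 197 CPM at E14 to 208 to 260 at E16, by 0.61 ± 0.10 (adjusted p = 8.2e-05), and its exons overlap 2 genes of the other strand by up to 1381 bases. Adamts20 fell from 56.3 to 70.4 CPM to 33.3 to 44.5 CPM over the same interval, by 0.67 ± 0.08 (adjusted p = 5.8e-07). Adamts1 fell by 0.45 ± 0.14 from E13 to E14 (adjusted p = 0.025), although the call was lost without either E14 tooth of embryo 6, the right (-0.42, adjusted p = 0.051) or the left (-0.41, adjusted p = 0.057) (Adamts1 E13 to E14). It was also lost with the teeth of 1 embryo summed and with embryo number as a block, at an adjusted p of up to 0.12. Adamts1 and Adamts5 lie side by side at chr16:85793827-85901828, and the former fell over E13 to E16 (-0.64 ± 0.14) while the latter rose (1.24 ± 0.14). Versican RNA (Vcan), a substrate of this group, rose from a median of 1929 CPM at E13 to 2168 at E14 and 3557 at E16, by 0.94 ± 0.08 in all (adjusted p = 9.4e-10). The other listed proteoglycan substrates were far lower. From E13 to E16 the median of Acan rose from 0.319 to 2.21 CPM and that of Ncan fell from 1.18 to 0.311 CPM, and Bcan was not tested.

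Of the 8 other tested Adamts genes, 3 fell from E13 to E14. Adamts7, which cleaves cartilage oligomeric matrix protein, went from 36.8 to 47.0 CPM at E13 to 19.7 to 27.7 at E14, a fall of 0.88 ± 0.13 (adjusted p = 3e-05) with no overlap. Its relative Adamts12 did not pass in any comparison. Of the 4 members linked to fibrillin microfibrils, Adamts19 fell by 0.97 ± 0.10 (adjusted p = 2.2e-07) from 21.8 to 27.7 CPM to 10.9 to 14.01 CPM, and Adamts6 fell by 0.59 ± 0.11 (adjusted p = 0.00027). Adamts10 fell later, by 0.44 ± 0.09 from E14 to E16 (adjusted p = 0.00094). Adamts17 did not pass with all teeth (0.21 ± 0.11 from E14 to E16), and did so without the E16 left tooth of embryo 3 (0.32 ± 0.08, adjusted p = 0.0019). Adamts18 and the barely expressed Adamts16 rose from E14 to E16.

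**Figure D4:**
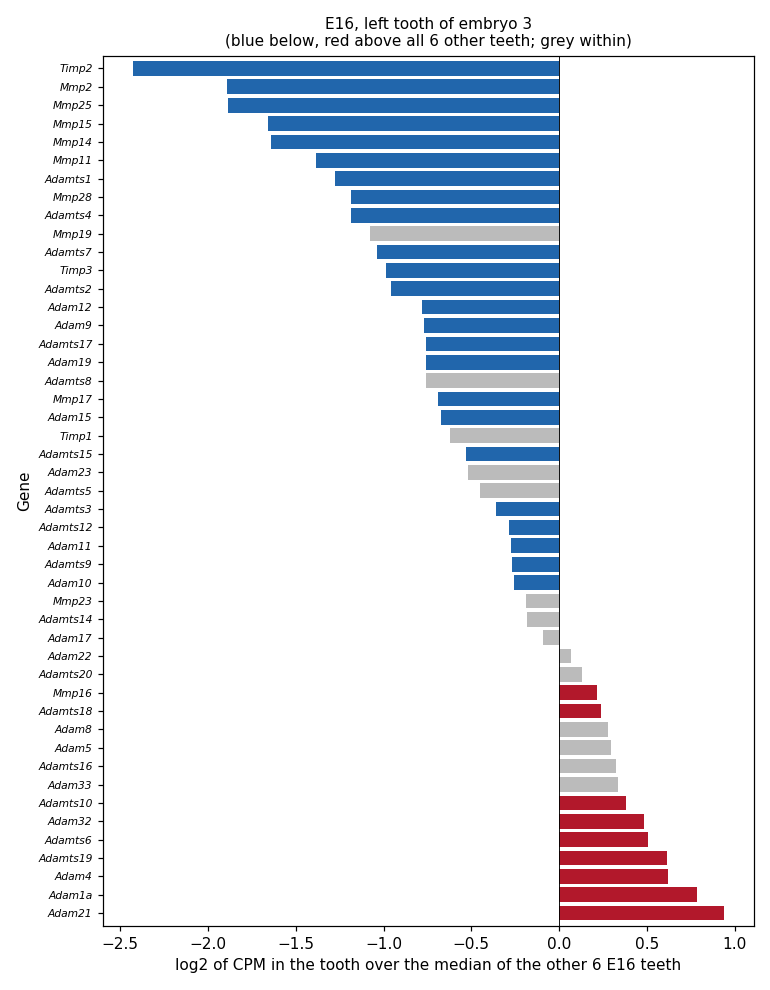
Log2 ratio of the CPM in the E16 left tooth of embryo 3 to the median of the other 6 E16 teeth, for the 47 tested members. Blue bars mark the 24 members below all 6 other teeth and red bars the 9 above all of them, with Timp2, Mmp2, Mmp25, Mmp15 and Mmp14 farthest below.

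The E16 left tooth of embryo 3 had 55.4 CPM of Timp2, where the other 6 E16 teeth had 266 to 309. For Mmp2 it had 70.5 CPM against 250.2 to 293, and for Mmp14 it had 104 CPM against 286 to 343. It was the lowest E16 tooth for 24 of the 47 tested members and the highest for 9, and over all genes tested it was the lowest for 36.9% and the highest for 33.5%. The members above all other teeth were Mmp16, Adam1a, Adam4, Adam21, Adam32, Adamts6, Adamts10, Adamts18 and Adamts19. Its summed mesenchymal markers were 957 CPM, its endothelial markers 148 CPM (E16 median 374), its cartilage markers 34.6 CPM (median 189) and its osteoclast markers 193 CPM (median 176). The cartilage sum at E16 was mostly Sox9, with an E16 median of 168 CPM, against 18.8 CPM for Col2a1. The part of this marker shift in the low Timp2, Mmp2 and Mmp14 was not tested.

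Genes that regulate these enzymes were taken from a list of 28 inhibitors, convertases and partners, of which 27 were tested. From E13 to E14, 9 rose and 1 fell, from E14 to E16 9 rose and 5 fell, and from E13 to E16 14 rose and 4 fell. These were 37%, 51.9% and 66.7% of the 27, beside 19.7%, 28.1% and 41.3% of all genes tested. Adamtsl5, a secreted ADAMTS-like protein without protease domain, rose from a median of 1.74 CPM at E13 to 4.74 at E14 and 14.4 at E16 (2.94 ± 0.21 in all, adjusted p = 4.7e-11). Rhbdf2, an inactive rhomboid that carries Adam17 to the cell surface, rose from 9.09 to 16.9 and 35.7 CPM (1.94 ± 0.15, adjusted p = 8.6e-11), whereas Adam17 itself did not pass. Rhbdf1 and Frmd8 of the same list did not rise at each step, with medians of 40.6, 64.9 and 58.5 CPM and of 25.5, 30.2 and 29.7 CPM. Tspan5, a tetraspanin partner of Adam10, rose from 33.9 to 49.1 and 73.9 CPM (1.12 ± 0.11, adjusted p = 5.4e-09), while Adam10 did not pass. Pcolce, an enhancer of procollagen C-proteinases, rose from a median of 51.7 to 103 CPM between E13 and E14 (0.99 ± 0.20, adjusted p = 0.00086). The convertase Furin rose by 0.51 ± 0.16 over that interval (adjusted p = 0.023), and the convertase Pcsk5 fell at each step, from 81.2 to 54.1 and 34.2 CPM (-1.25 ± 0.08 in all, adjusted p = 1.3e-11). Reck, a membrane inhibitor of Mmp14 and Mmp2, rose from E14 to E16 by 0.38 ± 0.12 (adjusted p = 0.023). Of the 5 astacin proteases, Bmp1, the procollagen C-proteinase, fell by 0.21 ± 0.07 from E13 to E16 (adjusted p = 0.025), and Tll1 fell to E14 and rose to E16.

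A second count table, made with salmon and scaled apart, held teeth of E13, E15 and E16, with 6 teeth at E15, and listed 48 of the members. Levels in it are CPM of estimated counts and are compared only within it. At E15, Adam12 had 76.6 to 84.9 CPM (median 79.1), above all E13 teeth (34.7 to 52.2) and within the E16 range (74.5 to 117). Adamts20 (31.0 to 49.9 CPM at E15, 62.3 to 79.0 at E13, 35.6 to 50.2 at E16) and Adamts15 (16.51 to 28.1 at E15, 32.5 to 45.8 at E13) were below every E13 tooth at E15. Mmp16 behaved otherwise, with 106 to 133 CPM at E15, overlapping the top of the E13 range (79.9 to 109.6) and above all E16 teeth (52.7 to 83.0). No test was made on the E15 levels.

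Each table has 7 E13 and 7 E16 teeth, of which 1 E13 tooth could not be matched between them. Over these teeth, mean counts of 45 of the 48 members lay within 2-fold of each other. The exceptions were Mmp12, with a mean of 0.571 reads by HTSeq and 1122 by salmon, Adamts13 (4.57 and 536) and Adam28 (5.71 and 52.4). The low levels of these 3 genes given above therefore hold for the HTSeq table alone, and the reason for the difference was not tested.

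**Figure D5:**
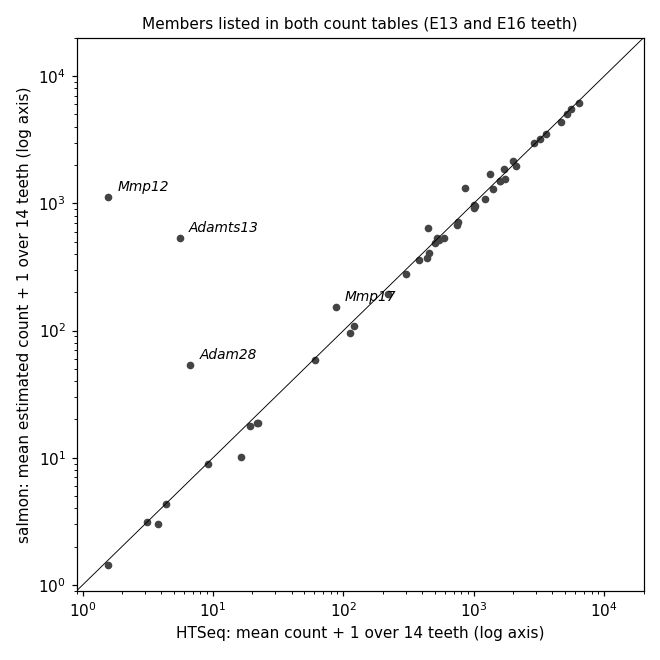
Mean count plus 1 over the E13 and E16 teeth in the HTSeq table against the salmon table, on log axes, 1 point per member listed in both, with the line of equality. Mmp12, Adamts13 and Adam28 lie above the line while most members lie on it.

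The 3 Mmp genes outside the rule were read in the same fit. Mmp9, a gelatinase of osteoclasts and other cells, rose from a median of 22.7 CPM at E13 to 67.3 at E14 and 129 at E16, and Mmp13, a collagenase of bone and cartilage, from 0.0849 to 0.763 and 22.7 CPM. Over the same stages the summed level of 5 osteoclast markers had medians of 14.7, 42.9 and 176 CPM. Mmp20, the enamel protease, had 2 reads over all teeth.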

How the data were processed

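Members and gene lists were chosen with earlier results of these data known. The authors deposited raw counts per gene, 1 column per tooth, made with HTSeq from STAR alignments to GRCm38 after quality filtering (FastQC, AfterQC, Trimmomatic). Whether counting used strand is not given in the sources used here. The authors also deposited estimated counts per gene from salmon for teeth of E13, E15 and E16, written as whole numbers, and nothing more on their making is given in the sources used here. In the HTSeq table, 1 E13 column carries no embryo number and was mapped to its stage only. The right E15 tooth of embryo 5 was not used here.

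From the counts, genes were filtered with filterByExpr, scaled by TMM and tested with edgeR's quasi-likelihood test (edgeR 4.0.16, limma 3.58.1, R 4.3.3) over all 21 teeth with stage as the only factor, with Benjamini-Hochberg adjustment over 19101 genes and a threshold of 0.05. The common biological coefficient of variation was 21.2%. Symbols and exon lengths came from the GENCODE annotation of GRCm38, where 3 further genes matching the name patterns were left out by the rule. The fit was tested on simulated counts before use. Genes named in the text were the Timp genes, the 4 members per family highest per kilobase, up to 4 called members per family and comparison with the largest change and a mean of at least 1 CPM, and 7 fixed genes (Adam10, Adam17, Mmp2, Mmp14, Adamts2, Adamts3, Adamts14). Others are named to account for counts.

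Alternatives were DESeq2 (1.42.0), other size factors and filters, summing the teeth of 1 embryo, side or embryo number as a factor, fits of 2 stages, the salmon table and leaving out each tooth. After the data were seen, HTSeq counts of only the genes in the salmon table were added.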

Additional observations from a re-analysis of the deposited data

Results flagged for a closer look

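In each stage, a tooth was marked where its gap to the nearest other tooth was above Dixon's 95% critical value for 7 teeth. Of 99 groups examined (33 named members at 3 stages), 13 values were marked, where chance gives about 4.95, and 8 of the 13 were in the E16 left tooth of embryo 3. In that tooth the lowest values of the stage were Timp2 at 55.4 CPM (next lowest 266), Mmp2 at 70.5 CPM (250.2), Mmp14 at 104 CPM (286), Timp3 at 74.5 CPM (137), Adamts17 at 58.6 CPM (97.3) and Adam19 at 24.2 CPM (37.6). The highest values of the stage were Adam1a at 7.40 CPM (next highest 4.83) and Adamts19 at 20.3 CPM (14.3).

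The other 5 values were the highest of their stage and came from different teeth. Adam19 had 62.0 CPM in the E13 left tooth of embryo 7 (next highest 50.4), and Adam11 had 13.53 CPM in the E14 right tooth of embryo 2 (10.3). Without the latter tooth, the log2 difference of Adam11 E14 to E16 was 0.33 with an adjusted p of 0.042 (edgeR). Adamts15 had 31.3 CPM in the E14 right tooth of embryo 3 (22.3), Mmp16 had 102 CPM in the E14 right tooth of embryo 5 (93.1), and Timp2 had 315 CPM in the E14 right tooth of embryo 1 (289).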

How the results depend on the processing

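No called member turned direction under the alternatives run. The calls moved by over 1.5 times in 2 counts, the members higher from E13 to E14, which were 6 with all teeth and 10 when only the 2 stages were compared or without the E16 left tooth of embryo 3, and those higher from E14 to E16 (9 with all teeth, 14 without that tooth). Over all single teeth left out, the counts were 14 to 21 members from E13 to E14 (5 to 10 higher and 8 to 11 lower), 16 to 22 from E14 to E16 (8 to 14 higher and 8 to 9 lower) and 23 to 31 from E13 to E16 (10 to 18 higher and 13 to 15 lower). DESeq2 called every member edgeR called, and 3, 1 and 0 further ones in the order E13 to E14, E14 to E16 and E13 to E16. With embryo number as a replicate block, 10 of 15, 15 of 17 and 19 of 26 calls remained. In the pairs of samples with the same number at 2 stages the deviations had a median correlation of 0.04, with 3 of 15 pairs above 0.1. Pairs with other numbers at 2 stages had a median of -0.004 (10 of 132 above 0.1). Left and right teeth of 1 embryo, which lie within 1 stage, had a median of -0.07 (1 of 3 above 0.1). For 60 pairs of different embryos within 1 stage the median was -0.18 (1 above 0.1). Deviations from a stage mean lower the correlations within a stage, so pairs within and across stages cannot be compared. With only 3 pairs known to share an embryo, these correlations cannot show whether samples of the same number share more than that number. With the teeth of 1 embryo summed, 14 of 15, 15 of 17 and 23 of 26 calls remained. In the salmon table, 22 of the 26 calls from E13 to E16 remained; of the 4 lost, Mmp11, Adam19 and Adam1a are not listed there and Mmp19 was not called.

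Signs turned for differences that passed neither with all teeth nor under the setting named. With upper quartile normalization, these were Adam10 E13 to E14 (-0.0084), Adamts5 E13 to E14 (-0.013). With teeth of one embryo summed, these were Adamts17 E13 to E14 (0.0050), Timp3 E14 to E16 (-0.0087), Adamts7 E14 to E16 (-0.022). With side as a factor, these were Adamts9 E13 to E14 (0.0028). With embryo number as replicate block, these were Adam10 E13 to E14 (-0.011), Adamts9 E13 to E14 (0.016), Adamts17 E13 to E14 (0.029), Adamts5 E13 to E14 (-0.0016), Timp3 E14 to E16 (-0.0047), Mmp2 E14 to E16 (-0.029), Adam23 E14 to E16 (-0.13), Adam33 E14 to E16 (0.0034). With the salmon table, these were Timp3 E13 to E16 (0.014). Over single teeth left out, the ranges that crossed 0 were Adamts9 E13 to E14 (-0.078 to 0.042), Adamts5 E13 to E14 (-0.057 to 0.076), Adamts17 E13 to E14 (-0.068 to 0.019), Timp2 E14 to E16 (-0.17 to 0.051), Mmp14 E14 to E16 (-0.11 to 0.079), Mmp11 E14 to E16 (-0.17 to 0.052), Adam1a E14 to E16 (-0.080 to 0.14), Adamts7 E14 to E16 (-0.043 to 0.14), Timp3 E13 to E16 (-0.058 to 0.10), Adamts3 E13 to E16 (-0.0085 to 0.11). The causes were not tested. Members with a mean under 1 CPM, such as Mmp19 and Adamts16, rest on few reads per tooth.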
